A study of Danio rerio with 49 samples.

Results

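Chromosome 8 is 1 of the 25 chromosomes over which replication timing was profiled in zebrafish embryos that were either homozygous for the omf201 allele of rif1 or wild type (WT). Its members here are the windows on chromosome 8 in the deposited z-scores, log2 ratios and counts of all libraries, which come to 5015 of 120059 windows (4.18%). The genotypes, rif1 omf201/omf201 and WT, both of strain Tab5, were compared at 4 stages: preMBT (before the mid-blastula transition, 2 to 2.5 hours post fertilization, hpf), Shield (6 hpf), Bud (10 hpf) and 24 hpf. At preMBT and Shield each library came from a pool of unsorted whole embryos, whose asynchronous cells were treated as an S-phase sample. At Bud and 24 hpf nuclei were sorted by DNA content into S-phase and G1 fractions. The labels used here do not say what the allele does to the protein or whether the mothers were mutant. A sample is a pool of embryos with many cell types, so each value is an average over all of them.

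Chromosome 8 was picked with results of these data in view. The chromosome was chosen by its preMBT z-scores, which differed between the genotypes over a long stretch near its far end. The preMBT genotype difference and the change from preMBT to Shield are therefore a description, and the window calls printed for them, from fits over all chromosomes, support nothing. The same stretch differed at Shield too, so whole-chromosome means are also given without it.

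DNA replication starts at many origins, and different parts of a chromosome are copied at different times in S phase. Early parts are usually open and gene-rich, and late parts are usually compact. Rif1 is a chromatin protein that recruits protein phosphatase 1, which counteracts the kinases that fire origins, and it is known for its role in late replication and in the timing program of vertebrate cells. The first cell cycles of fish embryos are fast and have little timing structure, which builds up after the mid-blastula transition.

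In S-phase DNA an early region has more copies than a late one, and timing is read from that. The authors divided the read count of each window by a G1 reference, smoothed the ratio along the chromosome, took log2, and scaled the smoothed ratio to a z-score in each library. A z-score of 0 is the genome's mean, a positive z-score is earlier and a negative one later, and 1 unit is 1 SD over the genome within that library. Equal z-scores of different groups therefore need not be equal log2 ratios. Positions are window centres on the GRCz11 assembly, and a region written as chr8 with a start and an end runs from its first to its last window centre. The centres run from 50000 to 54220000 in steps of 10 kb. Most windows (93.0%) are 60 kb wide, so neighbours overlap. There was 1 gap of more than 200 kb between centres, from 34440000 to 34690000, across which the profile was not joined.

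The 33 profile libraries and 16 G1 libraries held 5.09 to 32.2 M counts each (M stands for 1e+06), of which 0.213 to 1.35 M (4.13 to 4.25%) lay on chromosome 8. The mean count per window there was 289 to 1840, a counting error of 2.33 to 5.88% in 1 unsmoothed window, which covers counting error only. At Shield, WT libraries 1 and 2, WT libraries 3 and 4, and omf201 libraries 1 and 2 differed by no more than the sampling noise (chi-square per degree of freedom 0.963 to 1.07, against 1.47 to 3.86 for the other Shield pairs), and each pair was counted as 1 sample. This left 3 samples of each genotype at preMBT and 4 of each at the other stages, 30 in all. The preMBT libraries of each genotype also agree within about sampling noise (0.912 to 1.10), so their spread may be technical. The labels number the replicates without saying that they are separate clutches, so p-values measure only the spread between these samples. Every omf201 profile was divided by a reference from the 8 omf201 G1 libraries and every WT profile by one from the 8 WT G1 libraries, so comparisons at different stages share these references. For that reason some differences are also given with 1 reference made from all 16 G1 libraries, called the common reference below. Differences printed without such a value rest on each genotype's own reference.

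As a whole, chromosome 8 lay near the genome's mean at Shield and later than it from Bud on. The mean z-score over its windows at Shield was 0.0286, 0.093, 0.00645 and 0.00104 in the 4 omf201 samples, against -0.0303, -0.0253, -0.0394 and -0.0277 in the 4 WT samples. Every omf201 sample was above every WT sample (difference 0.0629, exact two-sided permutation test p = 0.0286, the smallest that 4 against 4 can give, adjusted over 3 stages p = 0.0429). By 24 hpf the order was the other way round, with -0.16, -0.165, -0.126 and -0.163 in the omf201 samples, against -0.0301, -0.0743, -0.097 and -0.0674 in the WT samples. The difference of -0.0861 again left the groups apart (exact two-sided permutation test p = 0.0286, adjusted p = 0.0429). At Bud the means were -0.143 ± 0.0535 in omf201 and -0.0739 ± 0.0401 in WT (SD, n = 4 each), and the samples overlapped (difference -0.0691, exact permutation test p = 0.0857). At preMBT they were 0.238 ± 0.0461 in omf201 and -0.0552 ± 0.0118 in WT (SD, n = 3 each).

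Without the 173 windows of the preMBT run by which the chromosome was chosen, an alternative added after the values had been seen, neither genotype difference kept its call. At Shield the mean was then -0.018 ± 0.0396 in omf201 and -0.0483 ± 0.00979 in WT (SD, n = 4 each), and the samples overlapped (difference 0.0303, exact permutation test p = 0.2). At 24 hpf it was -0.173 ± 0.0153 in omf201 and -0.105 ± 0.0279 in WT (SD, n = 4 each), with the samples still apart (difference -0.0686, exact permutation test p = 0.0286, adjusted p = 0.0857). The Shield difference thus rests in part on the far end, and its call depends on it.

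The change of the genotype difference in mean z-score between stages was tested by exact permutation of the genotype labels within each stage, a test added after the values had been seen. Its null is no genotype difference at either stage, which is narrower than an equal difference at both. Changes from Shield to a later stage also go from unsorted embryos to sorted nuclei, and stage and sampling cannot be told apart in them. The difference moved by -0.132 between Shield and Bud (exact p = 0.00571, adjusted over 3 pairs of stages p = 0.00857). Between Shield and 24 hpf it moved by -0.149 (exact p = 0.000408, the smallest that 4900 arrangements can give, adjusted p = 0.00122). That smallest p follows from the groups being fully apart in opposite directions at Shield and at 24 hpf, so it adds nothing to those results. Between Bud and 24 hpf it moved by -0.017 (exact p = 0.761). Without the preMBT run the changes were -0.109 between Shield and Bud (exact p = 0.0122, adjusted p = 0.0184), -0.099 between Shield and 24 hpf (exact p = 0.00286, adjusted p = 0.00857) and 0.0103 between Bud and 24 hpf. With the common reference and all windows these changes were -0.133, -0.147 and -0.0147. The differences are modest beside those of other chromosomes: at 24 hpf that of chromosome 8 was number 21 of 25 counted from the highest, over a range of -0.255 to 0.209.

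A z-score is scaled within each library, and the deposited log2 ratios, which are not, gave another picture at Bud. The mean log2 ratio of chromosome 8 minus that of the other chromosomes at Shield was 0.00294 ± 0.0038 in omf201 and -0.00367 ± 0.000854 in WT (SD, n = 4 each, exact permutation test p = 0.0286, adjusted p = 0.0857). At Bud it was -0.0145 ± 0.00539 in omf201 and -0.0124 ± 0.00657 in WT (SD, n = 4 each, exact permutation test p = 0.629), and at 24 hpf -0.0254 ± 0.00361 in omf201 and -0.0137 ± 0.00646 in WT (SD, n = 4 each, exact permutation test p = 0.0571, adjusted p = 0.0857). On this scale the genotype difference moved by -0.00875 between Shield and Bud (exact p = 0.0849, adjusted p = 0.127), by -0.00958 between Bud and 24 hpf (exact p = 0.174) and by -0.0183 between Shield and 24 hpf (exact p = 0.000816, adjusted p = 0.00245). The change between Shield and 24 hpf passed the threshold on both scales, and that between Shield and Bud on the z-score scale alone. The log2 values include the preMBT run by which the chromosome was chosen and were not tested without it.

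The share of the chromosome's windows with a z-score above 0 is given as a description. At preMBT it was 57.9 ± 3.11% in omf201 and 45.3 ± 0.973% in WT (SD, n = 3 each). At Shield it was 51.3 ± 1.76% in omf201 and 50.6 ± 1.34% in WT (SD, n = 4 each), and the samples overlapped. At Bud 39.6 to 44.8% of the windows were above 0 in the omf201 samples, against 51.2 to 55.3% in the WT samples. The range at 24 hpf was 36.8 to 39.1% in omf201, against 46.1 to 47.6% in WT. From Bud on, less of the chromosome was earlier than the genome's mean in every omf201 sample than in any WT sample. The same share over all windows was not worked out, so whether this is particular to chromosome 8 was not tested.

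The contrast between early and late parts was larger at each later stage in both genotypes and was lower in omf201 from Shield on. Unsorted embryos were used at preMBT and Shield and sorted S-phase nuclei at Bud and 24 hpf. In the rise from Shield to Bud, stage therefore cannot be told apart from that change of sampling. This amplitude is the SD over the chromosome's windows of the deposited log2 ratio, which is not scaled by library. At preMBT it was 0.0367 ± 0.000396 in omf201 and 0.0366 ± 0.0018 in WT (SD, n = 3 each). At Shield it was 0.0822, 0.0849, 0.0752 and 0.0831 in the omf201 samples, against 0.12, 0.113, 0.118 and 0.121 in the WT samples. The values at Bud were 0.0974, 0.0892, 0.0966 and 0.0989 in omf201, against 0.166, 0.168, 0.165 and 0.148 in WT. At 24 hpf it was 0.153, 0.145, 0.146 and 0.152 in omf201, against 0.21, 0.201, 0.203 and 0.209 in WT. At each of these 3 stages all omf201 samples were below all WT samples, with differences of -0.0367, -0.0661 and -0.0569 (exact two-sided permutation test p = 0.0286 each, adjusted p = 0.0286).

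The other 24 chromosomes behaved alike, with a mean amplitude of 0.0824 in omf201 and 0.12 in WT at Shield, 0.0993 in omf201 and 0.155 in WT at Bud, and 0.163 in omf201 and 0.212 in WT at 24 hpf. The amplitude of chromosome 8 minus that of the other chromosomes of the same sample was -0.00101 ± 0.000413 in omf201 and -0.00154 ± 0.00353 in WT at Shield (SD, n = 4 each, exact permutation test p = 0.886). At Bud it was -0.00381 ± 0.00182 in omf201 and 0.00666 ± 0.00111 in WT (SD, n = 4 each, exact permutation test p = 0.0286, adjusted p = 0.0857). At 24 hpf it was -0.0141 ± 0.000807 in omf201 and -0.00636 ± 0.00591 in WT (SD, n = 4 each, exact permutation test p = 0.0571, adjusted p = 0.0857). None of the 3 passed the threshold after adjustment. Against the common reference the differences were -0.00521, -0.0167 and -0.0123, each with an adjusted exact permutation p of 0.0286, so the calls, and at Shield the sign, depend on the reference.

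The shape of the profile differed too. Each sample's profile was correlated over the 5015 windows with the mean WT profile at 24 hpf, leaving out the sample itself where it belonged to that mean. At preMBT the correlation was near 0, with means of -0.00441 in omf201 and -0.0178 in WT. At Shield it was 0.638, 0.595, 0.575 and 0.61 in the omf201 samples, against 0.668, 0.63, 0.664 and 0.68 in the WT samples, and the groups overlapped (exact permutation test p = 0.0571). The values at Bud were 0.703, 0.724, 0.665 and 0.724 in omf201, against 0.824, 0.835, 0.802 and 0.834 in WT. At 24 hpf it was 0.732, 0.724, 0.693 and 0.696 in omf201, against 0.982, 0.989, 0.99 and 0.988 in WT. At Bud and at 24 hpf the groups did not overlap (differences -0.12 and -0.276, exact two-sided permutation test p = 0.0286, adjusted p = 0.0429 each). The mean WT profile was not remade in each permutation, and at 24 hpf the WT samples were scored against their own group. The 24 hpf p-value is therefore a description only. WT samples share the G1 reference of the profile they were set against, and with the common reference the differences were -0.148 and -0.307. The Bud p-value covers likeness to a WT profile only. With the mean omf201 profile at 24 hpf, the mean Bud profile correlated at 0.697 in omf201 and 0.533 in WT.

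**Figure D1:**
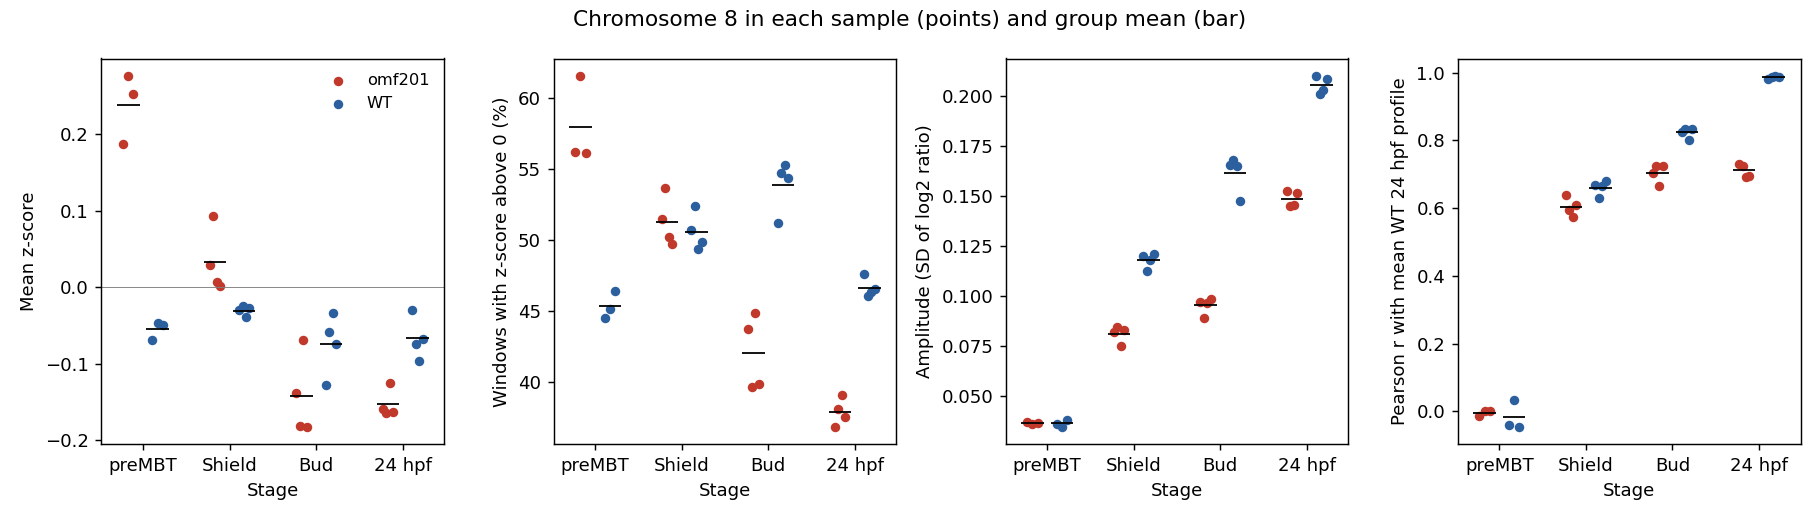
Mean z-score, share of windows above 0, amplitude and correlation with the mean WT 24 hpf profile of chromosome 8 (vertical axes) by stage (horizontal axes), with 1 point per sample, omf201 left of WT, and a bar at each group mean. Amplitude is larger at each later stage in both genotypes and lies lower in omf201 from Shield on (0.149 in omf201 and 0.206 in WT at 24 hpf). Between Shield and Bud the sampling also changes, from unsorted embryos to sorted nuclei.

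Along the chromosome the mean profiles of the genotypes had a correlation over the windows of 0.423 for preMBT, 0.906 for Shield, 0.845 for Bud and 0.72 for 24 hpf, so they were most alike at Shield. Pairs of samples of 1 genotype correlated at 0.702 to 0.724 at preMBT and at 0.861 to 0.987 from Shield on, and omf201 with WT samples at 0.676 to 0.739 at 24 hpf. These correlations describe overlapping windows that share references, with no test.

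**Figure D2:**
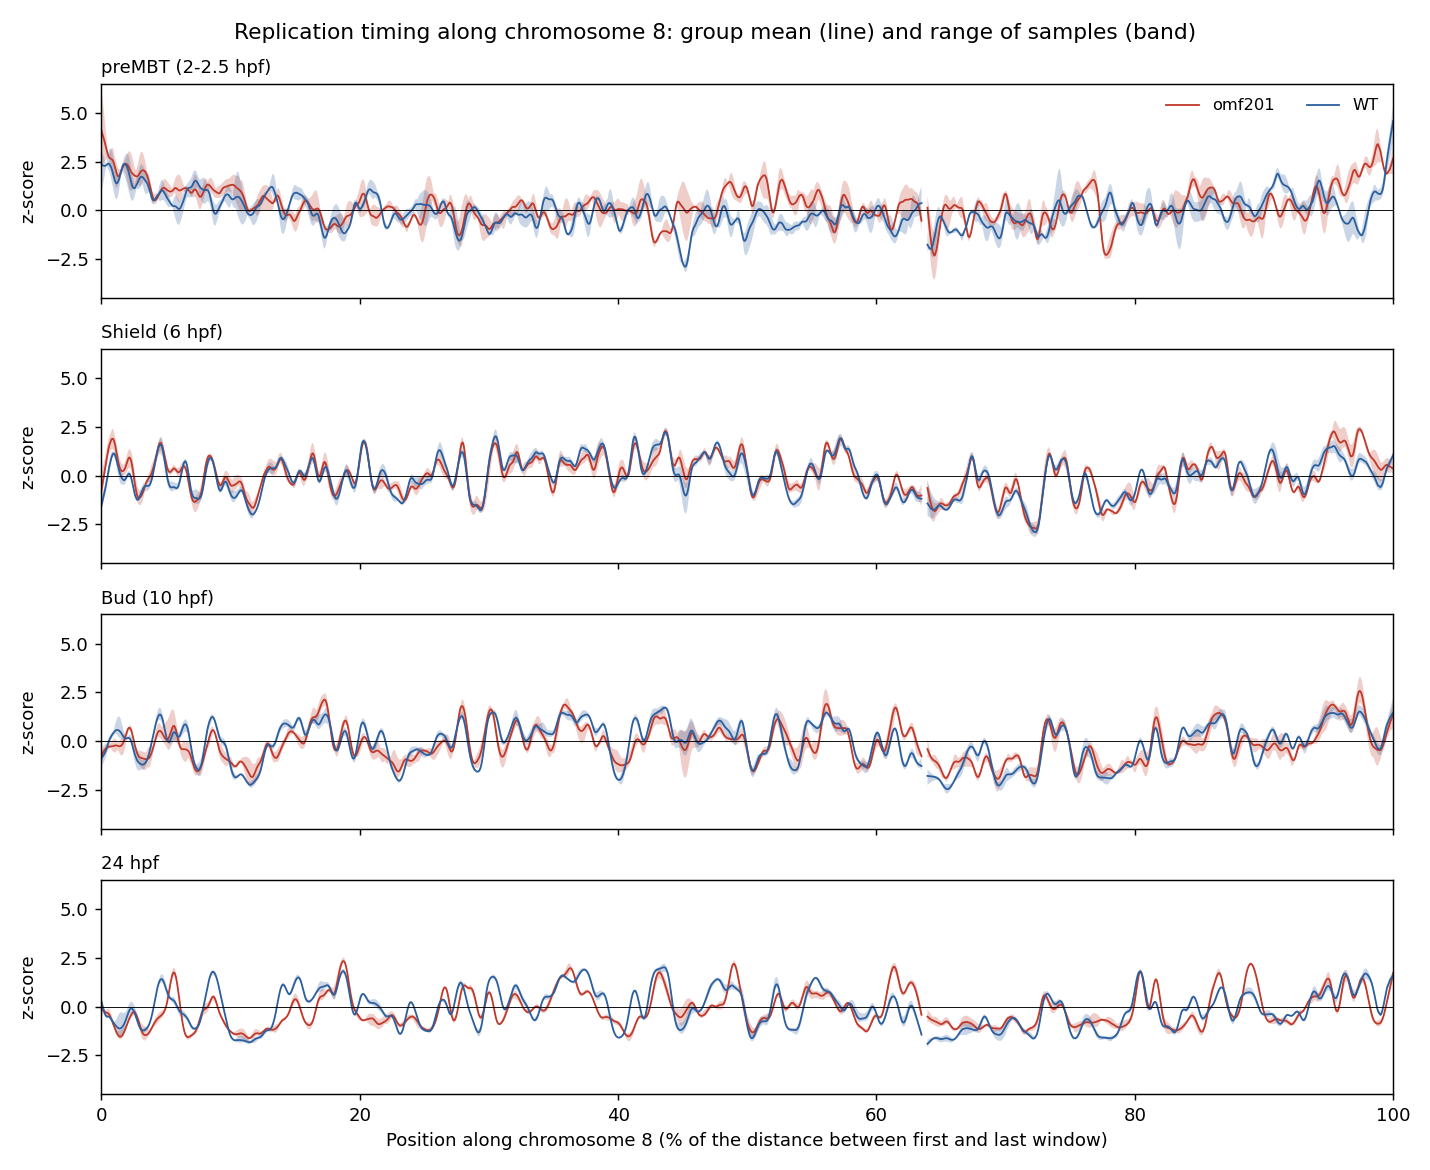
z-score (vertical axis) along chromosome 8 (horizontal axis) at the 4 stages. Lines are group means and bands the range of the samples, for omf201 and WT. The lines follow each other at Shield (r = 0.906) and part over many stretches at 24 hpf (r = 0.72).

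Timing domains were cut from the mean WT profile at 24 hpf where it crosses 0, so the WT levels at 24 hpf describe the choice, and differences between the genotypes at 24 hpf within domains carry no test. There were 54 stretches, of which 33 spanned at least 500 kb and are called domains, numbered along the chromosome, and 21 were shorter. The 16 early domains were 590 to 3130 kb long (median 870 kb) and the 17 late ones 550 to 4810 kb (median 1190 kb), and together they held 88.4% of the windows. At preMBT the start of the chromosome, domain 1 (chr8:110000-2240000), was the earliest of all, at 2.1 ± 0.219 in omf201 and 1.68 ± 0.292 in WT (SD, n = 3 each), although it was late at 24 hpf in both genotypes (-0.932 ± 0.0865 in omf201 and -0.716 ± 0.153 in WT, SD, n = 4 each).

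The earliest domain of WT at 24 hpf was number 17 at chr8:22940000-24010000. Its 24 hpf z-scores were 0.88, 1.03, 0.619 and 0.772 in the omf201 samples, against 1.38, 1.39, 1.51 and 1.58 in the WT samples. It was early from Shield on in both genotypes, at 1.23 ± 0.113 in omf201 and 1.5 ± 0.111 in WT at Shield and 0.868 ± 0.142 in omf201 and 1.3 ± 0.0758 in WT at Bud (SD, n = 4 each). At preMBT it averaged -1.1 ± 0.226 in omf201 and 0.0399 ± 0.295 in WT (SD, n = 3 each). Domain 15 (chr8:18470000-21290000), also among the 4 earliest, was early from Shield on too, and at 24 hpf it was at 0.658 ± 0.0358 in omf201 and 1.07 ± 0.0467 in WT.

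Domain 4 (chr8:4340000-5150000) differed more. Its 24 hpf z-scores were -0.053, 0.0764, 0.1 and -0.13 in the omf201 samples, around the genome's mean, against 1.08, 1.1, 1.09 and 1.03 in the WT samples. At Bud it was at -0.114 ± 0.101 in omf201 and 0.548 ± 0.124 in WT, and at Shield at 0.279 ± 0.0458 in omf201 and 0.0702 ± 0.103 in WT (SD, n = 4 each). The samples overlapped at Shield and not at Bud. From Shield on it thus became earlier at each stage in WT and not in omf201. Under the common reference the Shield difference of 0.209 was -0.166.

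Domain 27 (chr8:43250000-43950000) was late first and early last. It was at -0.8 ± 0.0885 in omf201 and -0.395 ± 0.122 in WT at Shield and at -1.12 ± 0.317 in omf201 and -0.573 ± 0.0973 in WT at Bud (SD, n = 4 each). At 24 hpf its omf201 samples were at 0.809, 0.7, 0.851 and 0.676, and its WT samples at 0.966, 1.12, 0.999 and 1.01. The turn to early between Bud and 24 hpf appeared in both genotypes.

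The 4 latest domains of WT at 24 hpf were late in omf201 as well. Domain 5 (chr8:5160000-7400000) was the latest, at -1.3 ± 0.0583 in omf201 and -1.37 ± 0.0231 in WT, and the samples overlapped. At preMBT it had been earlier than the mean, at 0.674 ± 0.153 in omf201 and 0.526 ± 0.114 in WT (SD, n = 3 each). Domain 16 (chr8:21300000-22210000) was at -0.991 ± 0.0703 in omf201 and -1.1 ± 0.0346 in WT at 24 hpf and near the mean at Shield (-0.0963 ± 0.233 in omf201 and -0.182 ± 0.0661 in WT). Domain 24 (chr8:34690000-39500000), the longest of all at 4810 kb, averaged -0.928 ± 0.0399 in omf201 and -1.23 ± 0.108 in WT at 24 hpf, and domain 26 (chr8:40410000-43240000, 2830 kb) averaged -0.842 ± 0.0739 in omf201 and -1.12 ± 0.0417 in WT (SD, n = 4 each). In both of these all omf201 samples were above all WT samples. Both had been late since Shield in both genotypes.

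The other long domains were early. Domain 6 (chr8:7410000-10540000, 3130 kb) was at 0.0682 ± 0.135 in omf201 and 0.0566 ± 0.0558 in WT at Shield, at 0.537 ± 0.0829 in omf201 and 0.638 ± 0.0222 in WT at Bud and at 0.264 ± 0.0612 in omf201 and 0.923 ± 0.0421 in WT at 24 hpf. The samples overlapped at Shield and Bud and were apart at 24 hpf. Domain 33 (chr8:50680000-53530000, 2850 kb), at the far end, was at 1.2 ± 0.151 in omf201 and 0.701 ± 0.145 in WT at Shield, at 1.07 ± 0.175 in omf201 and 0.968 ± 0.0833 in WT at Bud and at 0.618 ± 0.0969 in omf201 and 0.925 ± 0.0892 in WT at 24 hpf (SD, n = 4 each). Its order at Shield was the opposite of that at 24 hpf. Domain 33 holds most of the preMBT run by which the chromosome was chosen, so its Shield difference is not free of that choice.

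**Figure D3:**
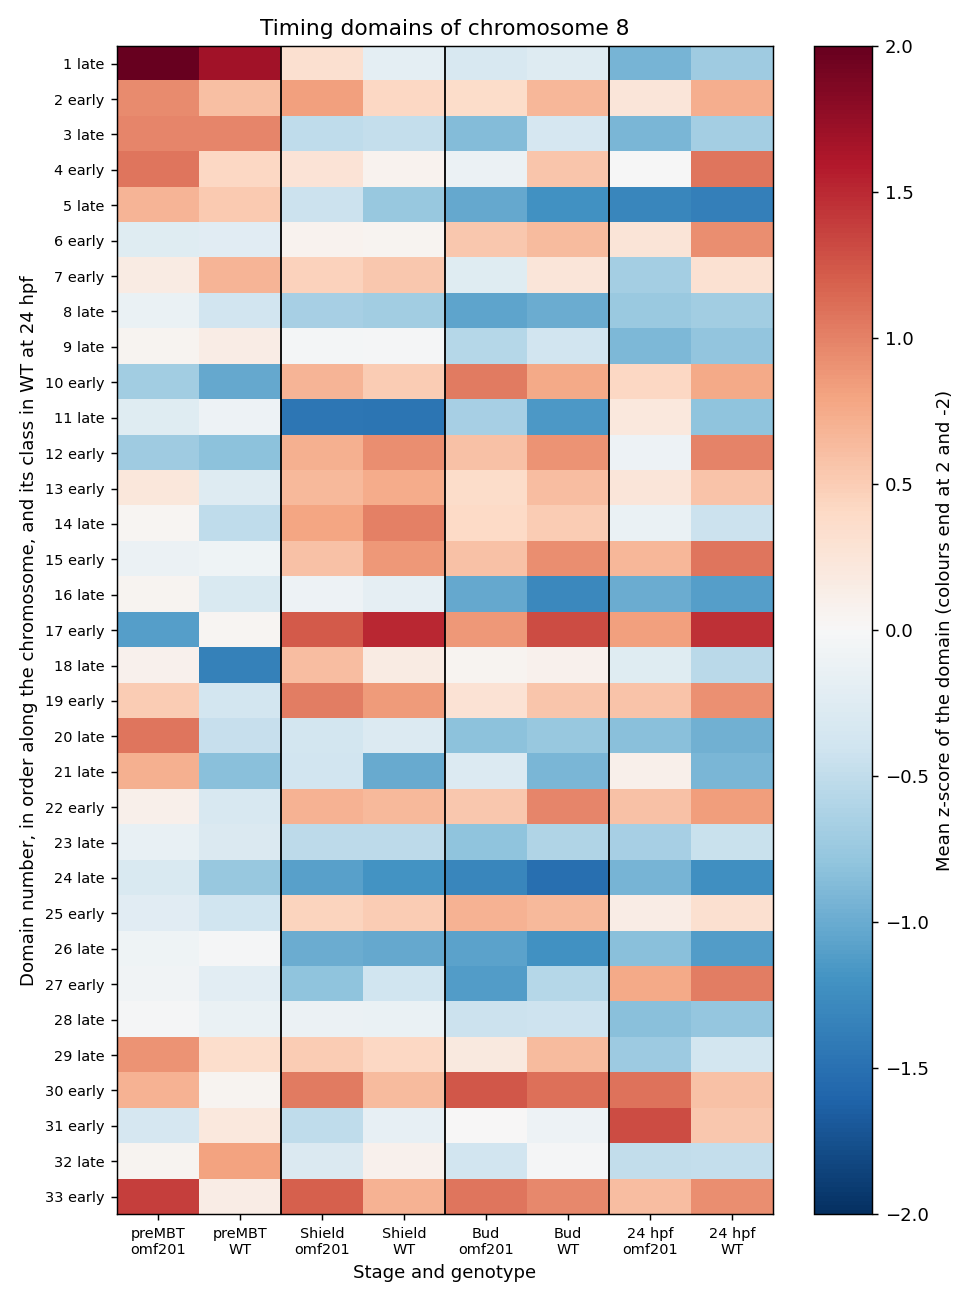
Mean z-score (colour) of the 33 domains of chromosome 8, in order along the chromosome, by stage and genotype, omf201 left of WT. In WT 27 of the 33 domains keep their sign from Shield to 24 hpf, and the means of domains 4, 7, 11, 12 and 21 have opposite signs in omf201 and WT at 24 hpf. In domains 4 and 21 the omf201 samples at 24 hpf lie on both sides of the genome's mean.

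In omf201, 22 of the 33 domains had the WT 24 hpf sign at Shield, Bud and 24 hpf alike. In WT 27 domains did, and 21 domains did in both genotypes. At preMBT 14 domains had that sign in omf201 and 18 in WT. The 6 domains that changed sign in WT were numbers 14, 18, 27, 29, 31 and 32. Domain 29 (chr8:46040000-46600000), one of them, averaged 0.512 ± 0.0789, 0.19 ± 0.349 and -0.726 ± 0.171 in omf201 at Shield, Bud and 24 hpf, and 0.418 ± 0.128, 0.637 ± 0.139 and -0.368 ± 0.0763 in WT (SD, n = 4 each).

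Counts by domain type are a description, since the domains were typed by the WT level, so that WT is high in early and low in late domains by choice. At 24 hpf all omf201 samples were below all WT samples in 13 of the 16 early domains and above them in 2, where over all single windows of the genome the shares were 32.2% below and 34.3% above. Here and at the other stages, domain means average many windows and single windows do not. The window shares also cover early and late windows alike, so they are no matched background for these counts. In the 17 late domains they were all above in 6 and all below in 2. The median omf201 minus WT difference at 24 hpf was -0.342 in early domains and 0.0721 in late ones. At Bud, whose samples did not set the cuts but whose WT profiles share the G1 reference and much of the shape of that at 24 hpf, the omf201 samples were all below WT in 8 early domains and all above in 0, with a median difference of -0.283, where 19.5% of all windows were below and 19.1% above. In the late domains at Bud they were all above in 2 and all below in 2 (median -0.0577). At Shield they were all above in 1 early domain and all below in 3, and all above in 4 late domains and all below in 1, where 14.3% of all windows were above and 14.2% below. That 1 early domain is domain 33, which holds most of the preMBT run by which the chromosome was chosen, so nothing is read from it.

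In 5 domains the mean z-score at 24 hpf had opposite signs in the genotypes, and apart from domain 4 they were chosen after their values had been seen. In domains 4 and 21 the omf201 samples lay on both sides of the genome's mean. In the late domain 11 (chr8:15430000-16100000) the omf201 samples were at 0.217, 0.172, 0.277 and 0.157, against -0.7, -0.926, -0.84 and -0.746 in WT. At Shield it was late in both genotypes (-1.45 ± 0.28 in omf201 and -1.46 ± 0.0805 in WT), and at Bud it was at -0.663 ± 0.203 in omf201 and -1.14 ± 0.0265 in WT (SD, n = 4 each). In its neighbour, the early domain 12 (chr8:16110000-16880000), the omf201 samples were at -0.153, -0.0549, -0.113 and -0.115 at 24 hpf, against 0.965, 1.03, 0.908 and 1.06 in WT. Domain 12 had been early in both genotypes at Shield (0.71 ± 0.204 in omf201 and 0.93 ± 0.024 in WT). So of 2 adjacent domains on opposite sides of the mean in WT, the late one was above it and the early one below it in omf201.

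Domain 7 (chr8:10820000-11680000), early in WT, had 24 hpf z-scores of -0.576, -0.622, -0.668 and -0.846 in the omf201 samples, against 0.249, 0.268, 0.306 and 0.392 in the WT samples. Domain 21 (chr8:28600000-29490000), late in WT, had -0.0305, -0.0257, 0.271 and 0.173 in omf201, against -0.797, -0.833, -0.961 and -1.05 in WT. Domains 30 and 31 were the 2 early domains in which omf201 was the earlier genotype at 24 hpf. Domain 31 (chr8:47710000-48570000) had 1.21, 1.38, 1.28 and 1.35 in omf201, against 0.686, 0.515, 0.536 and 0.397 in WT, after levels of -0.509 ± 0.154 in omf201 and -0.167 ± 0.138 in WT at Shield.

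The places where the mean profile crosses 0 were also compared, as a description. Of the 52 crossings in WT at 24 hpf, 15 had one within 100 kb in omf201 at that stage, and the median distance to the nearest was 162 kb. At Bud 19 of them had one in omf201 (median distance 190 kb) and 28 in WT (86.4 kb). At Shield 16 had one in omf201 and 13 in WT, and at preMBT 3 in omf201 and 9 in WT. At 24 hpf the number of crossings was 55 in omf201 and 52 in WT. These counts come from group means. Neither their spread between samples nor the count for randomly placed crossings was worked out.

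Window by window, the genotypes were compared with limma on the z-scores over all 120059 windows with Benjamini-Hochberg adjustment, and a window is called at an adjusted p under 0.05. On chromosome 8, 28.0% of the windows were called at Shield (870 higher and 536 lower in omf201), against 29.6% of all windows (15.2% higher and 14.4% lower). At Bud 42.7% were called (851 higher and 1290 lower), against 43.9% of all windows (22.1% higher and 21.8% lower). At 24 hpf 69.3% were called (1505 higher and 1968 lower), against 73.3% of all windows (37.8% higher and 35.5% lower). The shares of chromosome 8 were thus close to the background, and its calls lay more on the higher side at Shield and more on the lower side at Bud and 24 hpf. Of the 870 higher calls at Shield, 202 form 1 run at the far end (region E below). That run contains the stretch by which the chromosome was chosen, so the direction of the Shield calls is not free of that choice. The median size of the difference on chromosome 8 was 0.257, 0.400 and 0.422 z-score units at Shield, Bud and 24 hpf, where it was 0.285, 0.417 and 0.504 on the other chromosomes. Overlapping windows and smoothing mean that neighbouring calls are not independent.

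At preMBT, the contrast for which chromosome 8 was picked, 20.7% of its windows passed the same threshold (770 higher and 270 lower in omf201), where 12.7% of all windows did (6.47% higher and 6.27% lower), and nothing is read from this. In the counts edgeR called 4.05% of them, against 5.5% of all windows. The longest higher run, chr8:51810000-53800000, had z-scores of 1.95, 1.89 and 2.01 in the omf201 samples, against -0.219, -0.0184 and -0.242 in the WT samples. On the log2 ratio scale it was at 0.0761 in omf201 and -0.00519 in WT. A z-score unit at preMBT is a small step in copy number, since the amplitude there was 0.0367 in omf201 and 0.0366 in WT. The longest lower run, chr8:23050000-23790000, averaged -1.24 ± 0.201 in omf201 and 0.0423 ± 0.372 in WT (SD, n = 3 each).

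Runs of called windows were then followed across the stages. A run is a row of consecutive called windows of 1 sign, and the longest of each comparison are described. They were selected for being called, so the differences that selected them are a description of those regions. The S-phase or whole-embryo counts of the same windows were also tested with edgeR without any G1 reference, which called 26.1% of chromosome 8 windows at Shield (29.1% of all windows), 37.1% at Bud (35.2%) and 61.9% at 24 hpf (62.3%). DESeq2 called 16.3% of chromosome 8 windows at Shield (19% of all windows), 24.1% at Bud (22.5%) and 54.9% at 24 hpf (56.1%). The 6 runs in the plot of region means are lettered A to F.

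Region A, chr8:32660000-34440000 (1780 kb), was the longest run of earlier replication in omf201 at 24 hpf. Its omf201 samples had z-scores of 0.894, 0.751, 1.03 and 0.799, against -0.209, -0.284, -0.413 and -0.369 in the WT samples. At Bud the omf201 samples were at 0.43, 0.449, 0.313 and 0.427, against -0.593, -0.503, -0.463 and -0.481 in WT. At both stages omf201 was early where WT was late, by 1.19 units at 24 hpf and 0.915 at Bud. At Shield both were late, at -0.761 ± 0.0468 in omf201 and -1 ± 0.0714 in WT (SD, n = 4 each), with all omf201 samples above all WT samples. The widest window difference at 24 hpf was 1.56 ± 0.11 (SE, limma adjusted p = 5.5e-08) at the window centred at 33340000. The differences of region A under the common reference were 1.16 at 24 hpf and 0.873 at Bud. In the counts edgeR called 95.9% of its windows at 24 hpf and 48.5% at Bud, with mean log2 differences of 0.195 and 0.115. The longest higher run at Bud, chr8:33000000-34440000, lies inside it, with a difference of 1.11 at Bud.

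Region A ends at the gap in the windows, and omf201 was also higher beyond it. The run chr8:34690000-36160000, the second longest at 24 hpf, is the first part of the long late domain 24. Its omf201 samples were at -1.03, -0.884, -0.916 and -0.81 at 24 hpf, against -1.49, -1.55, -1.74 and -1.63 in WT. It was late in both genotypes and less late in omf201. At Bud it was at -1.27 ± 0.117 in omf201 and -2 ± 0.0794 in WT, and at Shield, where the samples overlapped, at -1.23 ± 0.166 in omf201 and -1.48 ± 0.117 in WT (SD, n = 4 each). The counts differed by 0.207 (log2, edgeR) at 24 hpf and 0.203 at Bud. The second longest higher run at Bud, chr8:34690000-36070000, is almost the same stretch. The third, chr8:37780000-38550000, lies further into domain 24 and was at -0.973 ± 0.0822 in omf201 and -1.7 ± 0.188 in WT at Bud, while at 24 hpf it overlapped, at -0.735 ± 0.0578 in omf201 and -0.852 ± 0.191 in WT.

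Region B, chr8:28600000-29630000 (1030 kb), covers domain 21 and was the third longest higher run at 24 hpf. Its omf201 samples were at 0.0807, 0.0655, 0.396 and 0.283, against -0.598, -0.684, -0.775 and -0.897 in WT. At Bud the omf201 samples were spread widely, at 0.379, -0.568, -0.142 and -0.547, against -0.677, -0.85, -0.664 and -0.577 in WT. They stood above all WT samples there, the nearest by a narrow margin. At Shield region B was at -0.342 ± 0.143 in omf201 and -0.907 ± 0.131 in WT (SD, n = 4 each), again with the groups apart. The second longest higher run at Shield, chr8:28590000-29390000, is nearly the same stretch, and its widest window difference was 0.938 ± 0.154 (SE, limma adjusted p = 0.00033) at the window centred at 29120000.

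Region C, chr8:7220000-9570000 (2350 kb), was the longest run of later replication in omf201 at 24 hpf and lies mostly in domain 6. Its omf201 samples were at -0.312, -0.267, -0.221 and -0.325, against 0.755, 0.697, 0.758 and 0.767 in WT, a difference of -1.03. At Bud both genotypes were early, at 0.523 ± 0.11 in omf201 and 0.799 ± 0.0565 in WT, with the samples apart, and at Shield they overlapped, at 0.268 ± 0.132 in omf201 and 0.282 ± 0.0593 in WT (SD, n = 4 each). In omf201 the region was thus early at Bud and later than the genome's mean at 24 hpf, and in WT it was early at both. The widest window difference was -1.82 ± 0.081 (SE, limma adjusted p = 3.45e-09) at the window centred at 7640000. In the counts edgeR called 89.5% of its windows at 24 hpf, with a mean log2 difference of -0.208.

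Region D, chr8:19980000-21350000 (1370 kb), at the end of domain 15, was the second longest lower run at 24 hpf. Its omf201 samples were at 0.219, 0.101, 0.2 and 0.203, against 0.948, 1.14, 1 and 1.12 in WT. At Bud it was at 0.288 ± 0.121 in omf201 and 0.865 ± 0.0484 in WT, and at Shield at 0.85 ± 0.241 in omf201 and 1.18 ± 0.118 in WT (SD, n = 4 each), and all omf201 samples were below all WT samples at both. The longest lower run at Bud, chr8:20080000-21260000, lies inside region D, with a difference of -0.626. The third longest lower run at 24 hpf, chr8:10780000-11980000, takes in domain 7 and was at -0.708 ± 0.126 in omf201 and 0.153 ± 0.0756 in WT.

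**Figure D4:**
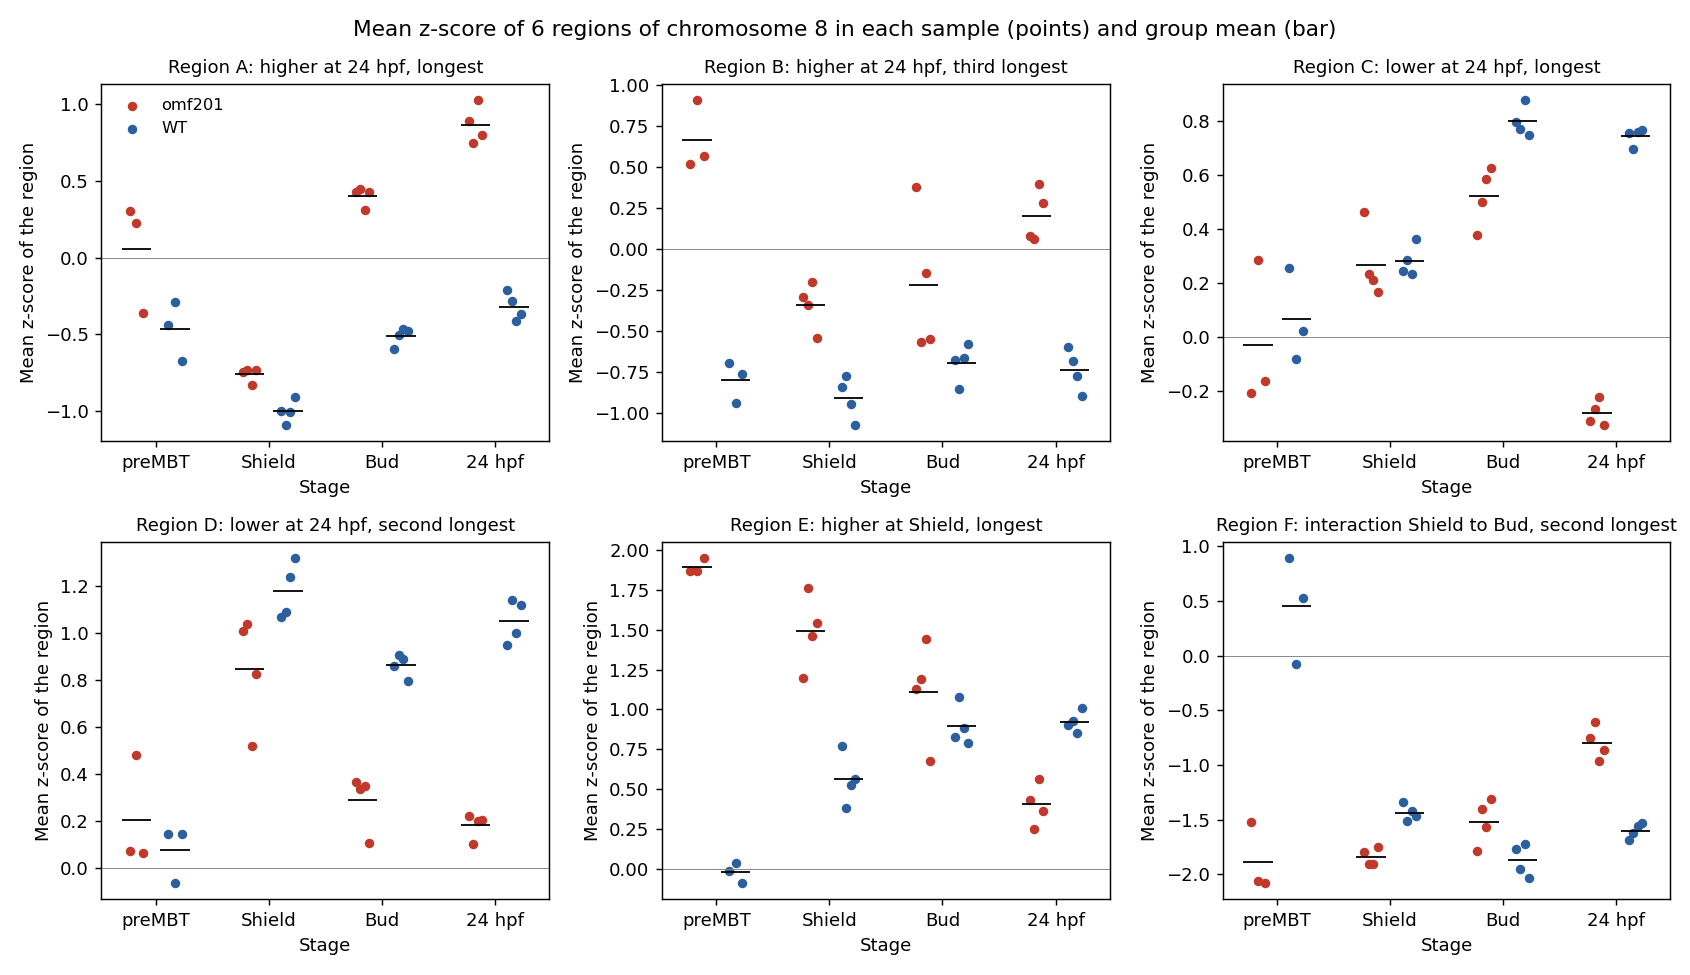
Mean z-score (vertical axis) of regions A to F in each sample at the 4 stages (horizontal axis), omf201 left of WT, with a bar at each group mean. In region A the genotypes lie on opposite sides of 0 at Bud and at 24 hpf (0.868 in omf201 and -0.319 in WT), and in region C at 24 hpf (-0.281 in omf201 and 0.744 in WT).

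The other lower runs at Bud were chr8:4370000-5320000 and chr8:36400000-37280000. The first covers domain 4 and was at -0.235 ± 0.148 in omf201 and 0.437 ± 0.122 in WT at Bud (SD, n = 4 each). The second lies inside the late domain 24, between stretches where omf201 was higher. Its omf201 samples were at -1.13, -1.32, -1.28 and -1.36 at Bud, against -0.366, -0.329, -0.295 and -0.475 in WT. At 24 hpf the samples overlapped there, at -1.02 ± 0.118 in omf201 and -0.933 ± 0.0924 in WT. In the counts edgeR called 22.9% of its windows at Bud, fewer than the 35.2% of all windows.

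Region E, chr8:51580000-53860000 (2280 kb), mostly within domain 33, was the longest run at Shield. Its z-scores were 1.2, 1.76, 1.46 and 1.54 in the omf201 samples, against 0.77, 0.384, 0.524 and 0.566 in the WT samples. It contains the whole preMBT run that led to the choice of the chromosome, and 85.6% of its windows passed the threshold at preMBT, so this difference is no independent choice. At Bud the genotypes overlapped, with 1.13, 1.19, 1.44 and 0.678 in omf201 and 0.826, 1.08, 0.884 and 0.787 in WT. By 24 hpf the order had turned, with 0.433, 0.252, 0.562 and 0.365 in omf201, against 0.905, 0.928, 0.85 and 1.01 in WT. The far end was thus earlier in omf201 at Shield, by 0.931, and later at 24 hpf, by a difference of -0.519. The widest window difference at Shield was 1.56 ± 0.165 (SE, limma adjusted p = 7.99e-06) at the window centred at 52750000.

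The Shield difference of region E depends on what is compared. In the counts without a G1 reference the mean log2 difference was 0.0275, and edgeR called 6.93% of its windows, where it called 29.1% of all windows. The z-score difference under the common reference was 0.76. The deposited log2 ratio was at 0.119 in omf201 and 0.0647 in WT. At 24 hpf the counts differed by -0.143 (log2), with 73.8% of the windows called. The G1 counts of region E differed by -0.0299 (log2) at 24 hpf, and 5.45% of its windows were called.

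The third longest higher run at Shield, chr8:24100000-24750000, was at 0.436 ± 0.259 in omf201 and -0.342 ± 0.43 in WT, and samples overlapped. The longest lower runs at Shield were chr8:50830000-51350000, chr8:23020000-23460000 and chr8:48750000-49190000. The first was at -0.00219 ± 0.0751 in omf201 and 0.676 ± 0.285 in WT and the third at 0.174 ± 0.181 in omf201 and 0.817 ± 0.0762 in WT (SD, n = 4 each), with the groups apart in both. The second lies in domain 17, the earliest, and was at 0.822 ± 0.309 in omf201 and 1.43 ± 0.22 in WT. Its samples overlapped in z-score. In the counts edgeR called 18% of the windows of the first, 100% of the second and 46.7% of the third, and 28.6% of the third longest higher run, against 29.1% of all windows. The mean log2 differences in these counts were -0.0598, -0.117 and -0.0485 for the lower runs and 0.0665 for the higher one.

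**Figure D5:**
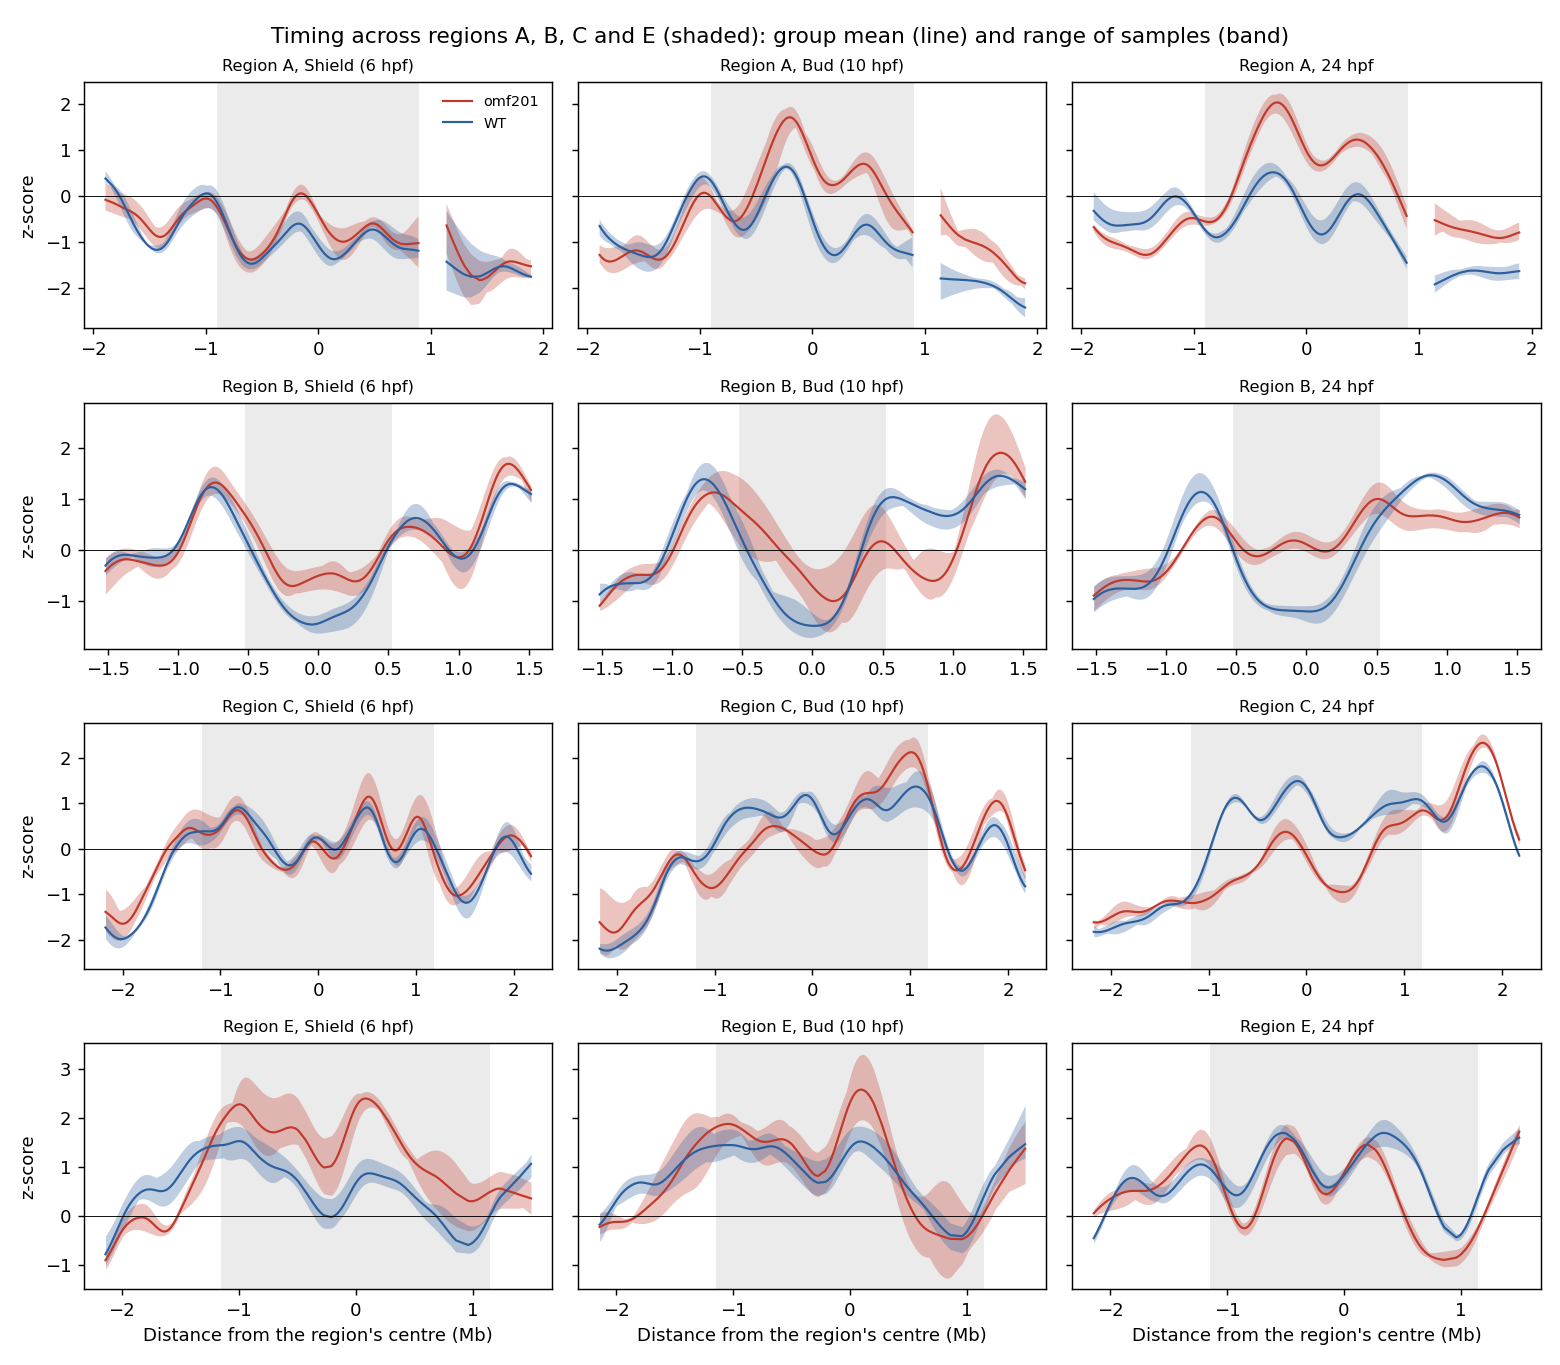
z-score (vertical axis) against the distance from the centre of regions A, B, C and E (horizontal axis) at Shield, Bud and 24 hpf. Lines are group means and bands the range of the samples, for omf201 and WT, and the region is shaded. In region B at 24 hpf the WT trough (-0.738 over the region) is shallow in omf201 (0.206).

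Whether the genotype difference changed between stages was tested as an interaction of genotype and stage. Between Shield and Bud 20.9% of the chromosome 8 windows were called, 251 with a rise of omf201 relative to WT and 797 with a fall, against 25.5% of all windows (12.6% rises and 12.9% falls). Between Bud and 24 hpf 25.8% were called, 545 rises and 749 falls, against 26.4% of all windows (13.1% rises and 13.3% falls). The called changes on chromosome 8 between Shield and Bud were thus mostly falls. Sampling also changed there, from unsorted embryos to sorted nuclei, and stage and sampling cannot be told apart in this interaction. Its Shield side includes the far end by which the chromosome was chosen.

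The longest rise between Shield and Bud, chr8:33500000-34340000, lies inside region A. Its omf201 minus WT difference was 1.29 at Bud and 0.252 at Shield, and its widest change was 1.32 ± 0.214 (SE, limma adjusted p = 0.000146) at the window centred at 33860000. The third longest rise, chr8:48290000-48750000, had differences of 0.805 at Bud and -0.0893 at Shield. The longest fall, chr8:4350000-5360000, covers domain 4, with differences of -0.653 at Bud and 0.219 at Shield. The third longest fall was chr8:45380000-46030000, with -0.578 at Bud and 0.285 at Shield. In the last 3 of these the sign of the Shield difference rests on the reference, since with the common one it was 0.235, -0.0823 and -0.115, while the sign at Bud was the same with both.

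The second longest fall lay at the start of the chromosome, chr8:150000-970000. Its Shield z-scores were 0.726, 1.08, 0.786 and 1.48 in the omf201 samples, against 0.307, 0.39, 0.223 and 0.251 in the WT samples. At Bud it was at -0.273 ± 0.174 in omf201 and 0.161 ± 0.103 in WT (SD, n = 4 each). It was thus higher in omf201 at Shield and lower at Bud, with the groups apart at both. Under the common reference the differences were -0.742 at Bud and 0.347 at Shield. In the counts the Shield difference was 0.0128 (log2, edgeR).

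Region F, chr8:42040000-42550000, the second longest rise between Shield and Bud, is where the G1 reference weighs most among the lettered regions. With each genotype's own reference it was at -1.84 ± 0.0827 in omf201 and -1.43 ± 0.0707 in WT at Shield (SD, n = 4 each), a difference of -0.407. At Bud the samples overlapped, with -1.79, -1.4, -1.57 and -1.31 in omf201, against -1.77, -1.95, -1.72 and -2.03 in WT. The rise is described with each genotype's own reference only. With the common reference the Shield difference was 0.782, and in the counts it was 0.161 (log2, edgeR, 95.8% of its windows called). The G1 counts were higher in omf201 there, by 0.132 (log2) at 24 hpf and 0.129 at Bud, with 52.1% and 27.1% of its windows called. At 24 hpf omf201 was higher with either reference, by 0.802 with its own and 1.41 with the common one.

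Between Bud and 24 hpf the longest fall, chr8:8460000-9550000, lies inside region C. Its omf201 samples were at -0.201, -0.2, -0.018 and -0.192 at 24 hpf and at 0.918, 0.996, 1.29 and 1.47 at Bud. The WT samples were at 0.741, 0.641, 0.679 and 0.799 at 24 hpf and at 0.775, 0.964, 1.01 and 0.882 at Bud. The WT samples were somewhat lower at 24 hpf, with the stages overlapping, and the omf201 samples were lower by more, with the stages apart. The widest change in the genotype difference was -1.37 ± 0.187 (SE, limma adjusted p = 4.57e-05) at the window centred at 8840000. The second longest fall, chr8:25180000-26080000, overlapped at Bud, at 0.375 ± 0.0411 in omf201 and 0.464 ± 0.0905 in WT, and was at -0.119 ± 0.0218 in omf201 and 0.859 ± 0.0645 in WT at 24 hpf (SD, n = 4 each). The third, chr8:52640000-53470000, lies in region E.

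The longest rise between Bud and 24 hpf, chr8:36390000-37060000, is the part of domain 24 that was later in omf201 at Bud. It was at -1.03 ± 0.163 in omf201 and -1.03 ± 0.112 in WT at 24 hpf and at -1.41 ± 0.0873 in omf201 and -0.424 ± 0.105 in WT at Bud (SD, n = 4 each). In z-scores WT became later there and omf201 became earlier by less, and the genotypes met at about the same level. A z-score unit differs in size between these groups, since the amplitude was 0.0955 in omf201 and 0.162 in WT at Bud. At 24 hpf it was 0.149 in omf201 and 0.206 in WT, so these levels and changes are given for z-scores only. The second longest rise, chr8:29280000-29910000, overlaps the end of region B, and its samples overlapped at both stages. The third, chr8:26340000-26890000, was at 1.63 ± 0.0634 in omf201 and 0.925 ± 0.173 in WT at 24 hpf, with the groups apart, but its counts differed there by 0.00427 (log2, edgeR) and its difference with the common reference was 0.368.

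Steps between stages were compared window by window in the same way, within each genotype. The share called depends on precision as well as size, so shares of different comparisons are not ranked. The median size of the change on chromosome 8 was 0.716 in omf201 and 0.836 in WT from preMBT to Shield. It was 0.484 in omf201 and 0.378 in WT from Shield to Bud, and 0.441 in omf201 and 0.364 in WT from Bud to 24 hpf. For genotype at 24 hpf it was 0.422, with a median SE of 0.0967, against 0.112 to 0.269 for the steps. From preMBT to Shield 54.7% of the windows were called in omf201 and 66.9% in WT, against 57.8% and 65.4% of all windows. From Shield to Bud 49.4% were called in omf201 and 55.1% in WT, against 55.5% and 53.6% of all windows. From Bud to 24 hpf 51.9% were called in omf201 and 59.7% in WT, against 54.9% and 61.6% of all windows. The step from Shield to Bud also goes from unsorted embryos to sorted nuclei, and stage and sampling cannot be told apart in it. In omf201 958 of the 5015 windows became earlier and 1785 later from preMBT to Shield, where over the whole genome 29% and 28.8% of windows did. In WT 1729 became earlier and 1624 later, where over the whole genome 32.6% and 32.9% did. From Shield to Bud 818 became earlier and 1658 later in omf201, where over the whole genome 26.4% and 29% did. In WT 1187 became earlier and 1575 later in that step, where over the whole genome 25.7% and 27.9% did. For omf201 the step from preMBT starts from the high preMBT level by which the chromosome was chosen, so nothing is read from its direction. From Shield to Bud the called windows of omf201 were mostly later at Bud.

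The longest stretch that became later from preMBT to Shield covered most of domain 5 in both genotypes. In omf201 it was chr8:4810000-6860000, at -0.622 ± 0.134 at Shield and 0.766 ± 0.244 at preMBT. In WT it was chr8:4940000-7270000, at -0.811 ± 0.102 at Shield and 0.482 ± 0.0999 at preMBT (SD, n = 4 at Shield and 3 at preMBT). The longest stretch that became earlier was chr8:24840000-25990000 in omf201 (1.06 ± 0.104 at Shield and -0.123 ± 0.203 at preMBT) and chr8:23080000-25470000 in WT (0.846 ± 0.0618 at Shield and -0.695 ± 0.213 at preMBT).

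From Shield to Bud the longest stretch that became earlier in omf201 was chr8:32790000-34370000, within region A, at 0.511 ± 0.0716 at Bud and -0.766 ± 0.0433 at Shield. The same stretch in WT was at -0.523 ± 0.0538 at Bud and -1.04 ± 0.0833 at Shield. In WT the longest was chr8:8960000-10250000, at 0.605 ± 0.136 at Bud and -0.242 ± 0.105 at Shield (SD, n = 4 each). The longest that became later was chr8:30880000-32080000 in omf201, at -0.3 ± 0.102 at Bud and 0.616 ± 0.14 at Shield. In WT it was chr8:20730000-22560000, which includes domain 16, at -0.326 ± 0.0654 at Bud and 0.561 ± 0.0502 at Shield.

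From Bud to 24 hpf the longest stretch that became earlier in WT was chr8:42690000-44070000, around domain 27, at 0.301 ± 0.0481 at 24 hpf and -0.882 ± 0.0689 at Bud. In omf201 it was chr8:28980000-30160000, at 0.502 ± 0.172 at 24 hpf and -0.427 ± 0.314 at Bud (SD, n = 4 each). The longest that became later was chr8:8500000-9590000 in omf201, at -0.105 ± 0.0929 at 24 hpf and 1.22 ± 0.261 at Bud, mostly inside region C. In WT it was chr8:45970000-47410000, at 0.126 ± 0.0292 at 24 hpf and 0.813 ± 0.109 at Bud.

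G1 nuclei have not begun to replicate, so their counts are the background against which timing is read. With edgeR 91 windows (1.81%) of chromosome 8 differed in G1 counts between omf201 and WT at Bud and 141 (2.81%) at 24 hpf, against 2.7% and 3.67% of all windows. DESeq2 called 0.518% at Bud and 1.3% at 24 hpf, against 0.841% and 2.22% of all windows. At 24 hpf edgeR called 2.17% of the windows in region D, 5.45% in region E and 52.1% in region F, where DESeq2 called 0.725%, 1.98% and 35.4%. In regions A, B and C edgeR called 0% of the windows, with 7.02%, 6.73% and 2.18% of them at an unadjusted p under 0.05, and DESeq2 called 0%, 0% and 0%.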

How the data were processed

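The authors deposited, for each library, read counts per window, and for profile libraries also the ratio to G1, the smoothed ratio, its log2 and a z-score (a score in SD units). The submitters' processing notes name fastp, BWA, Picard and GRCz11, and the labels name RepliTimer 1.0.11. Recomputing from the deposited counts gave the z-scores within 1.85e-05 when each mean-scaled count was divided by the median of the genotype's 8 mean-scaled G1 libraries and smoothed by a spline (penalty 1e+16 bp cubed, broken at gaps over 200 kb). Window tests used limma 3.58.1 on the deposited z-scores of all 120059 windows. Counts of 120082 windows were tested with edgeR 4.0.16 (quasi-likelihood, TMM) and, as an alternative, DESeq2 1.42.0, in R 4.3.3. Single values per sample were tested by exact two-sided permutation (scipy 1.17.1). Regions described by rule are the 4 earliest, 4 latest and 4 longest domains, the longest run of called windows in each direction of each contrast, and the next 2 for genotype and interaction. Chromosome 8, its regions and the tests were chosen with earlier results of these data known. Gene names and sequences are not used here.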

Additional observations from a re-analysis of the deposited data

Results flagged for a closer look

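A sample lay far from the others of its group (Dixon's gap test at 95%) in 12 of 236 groups of samples tested, and chance gives about 1 in 20. In chr8:37780000-38550000, Bud WT replicate 1 was at -1.98, against -1.63 to -1.57 in the other 3. In region C, 24 hpf WT replicate 2 was at 0.697, against 0.755 to 0.767. In region D, 24 hpf omf201 replicate 2 was at 0.101, against 0.2 to 0.219. In chr8:36390000-37060000, Bud omf201 replicate 1 was at -1.28, against -1.46 to -1.45. In chr8:8460000-9550000, 24 hpf omf201 replicate 3 was at -0.018, against -0.201 to -0.192, and in chr8:8500000-9590000 the same sample was at 0.0339, against -0.161 to -0.141. In chr8:32790000-34370000, Bud omf201 replicate 3 was at 0.404, against 0.534 to 0.555. In domain 5, 24 hpf omf201 replicate 2 was at -1.39, against -1.28 to -1.27. In domain 15 at Shield, omf201 replicate 4 was at 0.362, against 0.63 to 0.685, and WT replicate 6 was at 0.99, against 0.82 to 0.844. The mean z-score of chromosome 8 was -0.126 in 24 hpf omf201 replicate 3, against -0.165 to -0.16. The amplitude was 0.148 in Bud WT replicate 4, against 0.165 to 0.168.

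Called changes of the genotype difference in whole-chromosome values between stages are listed here, followed by the window shares of the interactions. Those tested by permutation within stages have as their null no genotype difference at either stage. In all changes from Shield, stage cannot be told apart from the change to sorted nuclei. The difference in mean z-score moved by -0.132 between Shield and Bud and by -0.149 between Shield and 24 hpf. The difference in amplitude relative to the other chromosomes moved by -0.011 between Shield and Bud (exact permutation within stages p = 0.0127, adjusted p = 0.038), a test added after the values had been seen. It moved by -0.00824 between Shield and 24 hpf (exact p = 0.0584, adjusted p = 0.0876) and by 0.00276 between Bud and 24 hpf (exact p = 0.639), and neither passed. The interaction of genotype and stage was called by limma in 20.9% of chromosome 8 windows between Shield and Bud and in 25.8% between Bud and 24 hpf, against 25.5% and 26.4% of all windows. These shares are listed whatever their size, and both are below those of all windows.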

How the results depend on the processing

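With 4 samples of a genotype at a stage the smallest exact p is 0.0286, and 0.0571 without 1 sample, so leaving out any 1 ends every permutation call within a stage. The changes of the mean z-score difference from Shield kept p under the threshold without any 1 of 16 samples (-0.157 to -0.112 to Bud, -0.159 to -0.129 to 24 hpf), and so did that of the relative amplitude from Shield to Bud (-0.0126 to -0.00988). The change from Bud to 24 hpf, not called, reversed without the preMBT run (0.0103), region E (0.0131), Bud WT replicate 1 (0.00117) or Bud omf201 replicate 3 (0.00765), over a range of -0.0305 to 0.00765 without 1 sample. The mean z-score call ended without the preMBT run (0.0303 at Shield, -0.0686 at 24 hpf), without region E (0.0265 and -0.0679) and on log2 ratios (0.00661 and -0.0117). Labels share replicate numbers, but same-numbered samples did not deviate together (correlations of -0.0435 to 0.0743). With the replicate block the share of chromosome 8 windows called was 27.6% at Shield, 41.7% at Bud, 67.9% at 24 hpf, 20.1% and 23.6% for the interactions, and 2.01% and 2.47% for G1 counts at Bud and 24 hpf. Shares that moved by over 1.5 times, apart from leaving out 1 sample, were these. On deposited log2 ratios Shield gave 52.2% and the Bud to 24 hpf interaction 40.9%. In 1 fit of all samples Shield gave 18%, that interaction 12.3% and the WT step from Bud to 24 hpf 36.4%. DESeq2 gave 16.3% at Shield, 24.1% at Bud, and 0.518% and 1.30% for G1 counts at Bud and 24 hpf. In 1-Mb bins the Shield to Bud interaction gave 32.7%. The correlation with the WT 24 hpf profile passed the threshold at Shield with the common reference (difference -0.0835) and with every library as its own sample (-0.0467). The amplitude relative to the other chromosomes reversed at Shield with the common reference (-0.00521) and without WT replicates 1 and 2 (-0.000107) or 3 and 4 (-0.000589), neither of these 2 called. With the common reference it passed at Bud (-0.0167) and 24 hpf (-0.0123). The Shield difference of region F reversed with the common reference (0.782) and in the counts (0.161 log2), and the share of region E called at Shield was 6.93% in the counts. Alternatives for regions, domains and changes of the mean z-score, apart from leaving something out, were the same in 111 cases and moved in 28. Apart from that share of region E, the moved ones used the common reference and shifted by at least the largest SD of a group compared. Where the groups of a domain overlapped, a change of sign was not counted as a reversal. The causes were not tested.

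Leaving out 1 sample at a time gave 19.0 to 26.5% at Shield, 34.1 to 44.0% at Bud and 64.4 to 68.8% at 24 hpf, 17.0 to 24.6% and 22.0 to 31.1% for the interactions, and 1.24 to 1.67% for G1 at Bud. For G1 at 24 hpf it gave 1.22% (without omf201 replicate 2) to 2.85%. The mean z-score difference was 0.0427 to 0.0734 at Shield and -0.096 to -0.0737 at 24 hpf. The amplitude difference was -0.0385 to -0.0346, -0.0707 to -0.064 and -0.0584 to -0.0554 at Shield, Bud and 24 hpf. The correlation difference was -0.127 to -0.107 at Bud and -0.284 to -0.27 at 24 hpf, and the relative amplitude at Shield -0.000589 to 0.00209.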
